A study of Mus musculus with 78 samples.

Results

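The immediate-early response genes described here are FOS, JUN, ATF3, EGR1, EGR2, NR4A1, MYC, ZFP36, IER3 and PLK3, taken by symbol from the deposited count table of mouse liver. They are 10 of the 2755 genes on the targeted panel, and all 10 were among the 2205 genes that the authors kept after filtering out low counts. In livers of mice given dichloroacetic acid (DCA), 12 of 90 tests of these genes passed, all 12 of them lower than in control livers of the same week, where 6.83% of all tests were lower and 10.5% passed in either direction. Of the 12 changes, 7 were seen in week 78, and none of those 7 passed without mice 89 and 90 of the control group, in which FOS and EGR1 were far above the other controls.

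Immediate-early genes are transcribed within minutes of a growth factor, cytokine, injury or stress signal, without new protein synthesis, mostly through kinase cascades that act on serum response factor and CREB. Most of their products are transcription factors that set off a later wave of genes, and their mRNAs are short-lived, so that a transient signal leaves a transient pulse. In liver they are known for rising quickly after partial hepatectomy and tissue injury.

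Male B6C3F1 mice drank deionized water, or water holding 3.5 g/L DCA, an inhibitor of pyruvate dehydrogenase kinase, in a stop-exposure study that asked which liver changes persist after exposure ends. RNA was measured by TempO-Seq, in which pairs of short probes ligated on their target RNA are counted, in lysed sections of archived formalin-fixed, paraffin-embedded liver blocks. Each library came from a separate mouse, and 68 of 78 libraries were kept by the authors. Old fixed blocks, thin sections and a panel of chosen genes limit what the libraries can show, and in bulk tissue fewer cells of a type and less RNA per cell cannot be told apart.

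Treatment began when the mice were 4 weeks old, and a group's number is the week of treatment at which its livers were taken. The controls on water were Control-10 (n = 4), Control-32 (n = 6), Control-57 (n = 6) and Control-78 (n = 6). The S1 mice drank DCA for 10 weeks and were taken at once (S1-10, n = 6) or after 22 (S1-32, n = 6), 47 (S1-57, n = 6) or 68 weeks on water (S1-78, n = 6). The S2 mice drank DCA for 32 weeks and were taken at once (S2-32, n = 6) or after 46 weeks on water (S2-78, n = 4). The S3 mice drank DCA for 57 weeks and were taken at once (S3-57, n = 5) or after 21 weeks on water (S3-78, n = 4), and Direct-78 (n = 3) drank DCA for all 78 weeks. Total counts per kept library ran from 541245 to 4285848 with a median of 2162678. The 3 Direct-78 libraries held 541245 to 699825 counts, against 2098777 to 4285848 in Control-78. Totals were also apart from the controls in S1-32 (2979117 to 3914572, against 721372 to 2731045), in S3-57 (1123317 to 2030701, against 2223516 to 4153377) and in S3-78 (1154431 to 1936370, against those of Control-78).

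Promoter sequences from RefSeq (mouse build GRCm38.p6, 250 bases before to 50 after a start site) were matched by symbol for 8 of the 10 genes, with 12 entries. They were searched on both strands for the CArG box of the serum response element, the cyclic AMP response element TGACGTCA, the AP-1 site TGANTCA and the TATA box TATAAA. Egr1 and Myc had no matched entry. Only Fos, Zfp36 and Egr2 held a motif, and their sequences are shown for that reason alone, not for how these genes changed. The Fos promoter (chr12:85473640-85473939, plus strand) held TATAAA 33 bases before the start site, the Zfp36 promoter (chr7:28379179-28379478, minus strand) held a CArG box 58 bases before it, and 4 of 5 Egr2 entries held a CArG box, shown for chr10:67537619-67537918 (plus strand, 72 bases before the start). Capitals mark the match.
Fos: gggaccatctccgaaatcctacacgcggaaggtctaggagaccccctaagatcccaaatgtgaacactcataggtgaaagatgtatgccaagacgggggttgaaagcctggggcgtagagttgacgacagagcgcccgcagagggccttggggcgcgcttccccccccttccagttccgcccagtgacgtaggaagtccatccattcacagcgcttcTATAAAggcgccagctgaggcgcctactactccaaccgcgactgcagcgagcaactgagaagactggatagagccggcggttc
Zfp36: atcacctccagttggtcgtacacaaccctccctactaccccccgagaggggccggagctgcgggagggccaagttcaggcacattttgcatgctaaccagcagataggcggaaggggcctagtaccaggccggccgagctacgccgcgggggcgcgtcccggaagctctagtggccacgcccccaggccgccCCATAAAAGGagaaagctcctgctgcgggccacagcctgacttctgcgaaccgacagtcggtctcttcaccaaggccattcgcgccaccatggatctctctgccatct
Egr2: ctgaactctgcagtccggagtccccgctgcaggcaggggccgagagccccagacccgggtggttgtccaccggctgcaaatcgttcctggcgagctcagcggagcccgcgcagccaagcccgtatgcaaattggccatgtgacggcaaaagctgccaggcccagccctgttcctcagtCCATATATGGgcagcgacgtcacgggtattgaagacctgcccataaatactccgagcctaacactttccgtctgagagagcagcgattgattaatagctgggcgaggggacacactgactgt
Of all 32851 mouse promoters, 1.63% held a CArG box, 1.79% the cyclic AMP response element, 7.81% the AP-1 site and 13.6% TATAAA. A match is a description of these letters only. The Atf3, Jun, Plk3, Nr4a1 and Ier3 entries held none of the 4 motifs in this window.

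Levels are given as CPM, counts scaled to the TMM-adjusted total of the tested genes. Over the 68 libraries, ZFP36 and PLK3 were counted in every library, FOS and ATF3 were at 0 in 1 library each, and JUN and IER3 in 2 each. EGR1 and MYC were at 0 in 5 libraries each, NR4A1 in 11 and EGR2 in 17. For each gene, all 12 neighbouring pairs in the order of the 13 group medians overlapped in range. Neighbours in such an order are close by construction. The highest and lowest groups did not overlap for ATF3, NR4A1 (no count in Direct-78), ZFP36 and PLK3, and overlapped for the other genes.

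**Figure D1:**
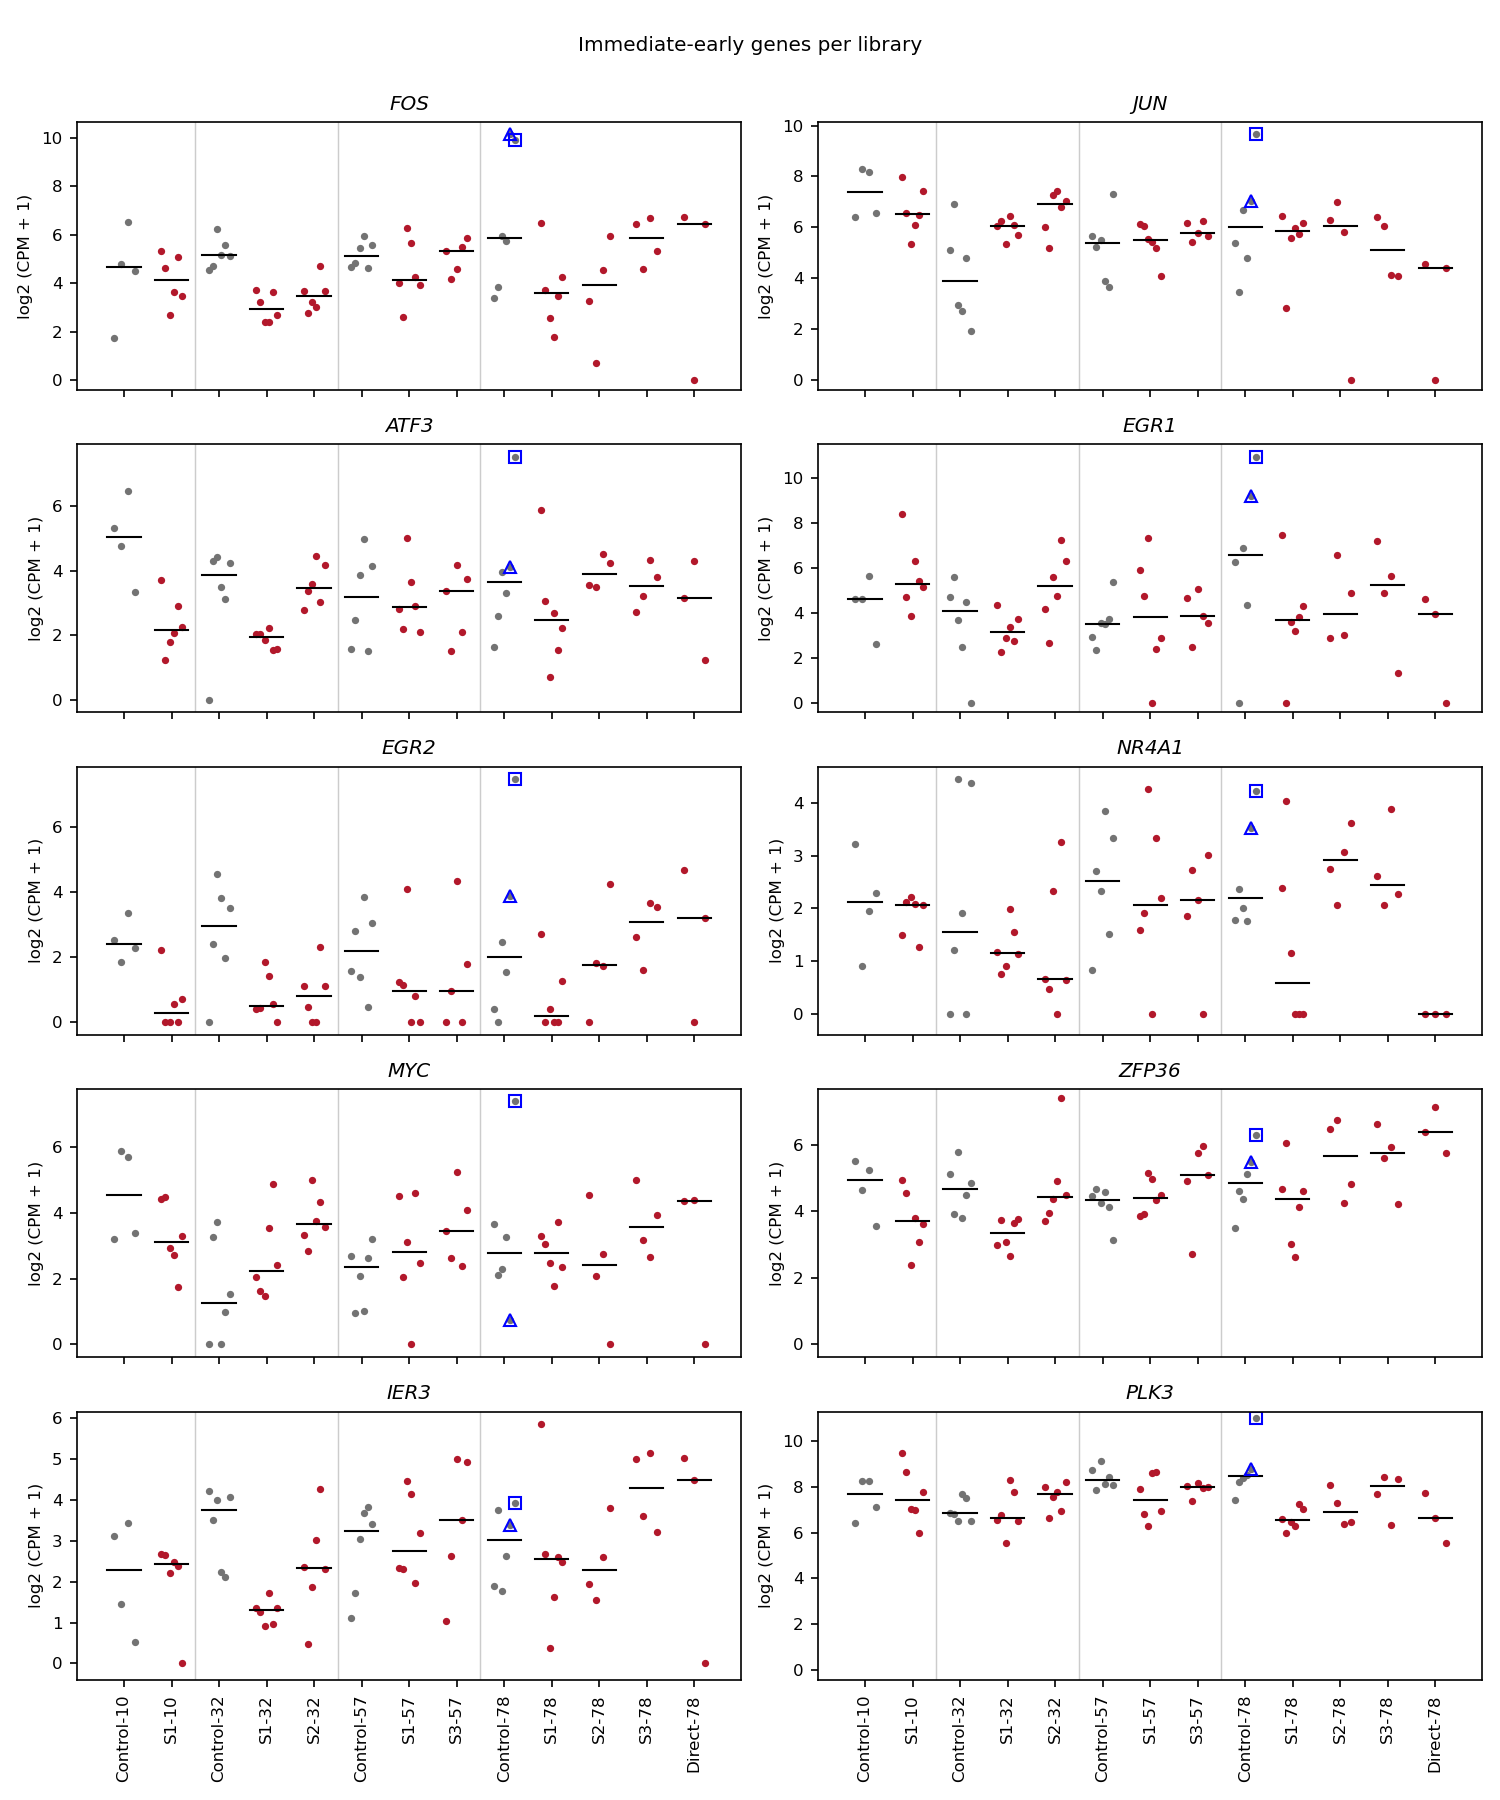
Level of each gene in each library, as log2 of CPM plus 1 on the vertical axis, by group (grey, controls; red, DCA groups; black bar, median; vertical lines separate weeks 10, 32, 57 and 78). The blue triangle and square mark mice 89 and 90 of Control-78, which hold the highest FOS and EGR1 values of all groups.

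Control-78 mouse 90 stood apart before any comparison with DCA. Relative to its group mean it was highest of its group in 9 of the 10 genes, every one but FOS, and above the mean in all 10, and its mean standardised deviation over the 10 genes, 2.17, was the highest of the 68 libraries. EGR1 was at 1969.6 CPM in mouse 90 and 579 in mouse 89, while the other 4 controls of that week lay between 0 and 120. FOS was at 1126 CPM in mouse 89 and 966 in mouse 90, against 9.45 to 60.7 in the other 4. JUN, ATF3, EGR2, MYC and PLK3 were likewise highest in mouse 90, at 808, 186, 178, 168 and 2031 CPM, while mouse 89 had 129, 16.4, 13.8, 0.657 and 437 CPM of those 5. The next highest deviations belonged to S1-78 mouse 31 (1.24), S1-10 mouse 13 (0.945), Direct-78 mouse 64 (0.869), S1-57 mouse 27 (0.857) and S2-32 mouse 41 (0.804).

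**Figure D2:**
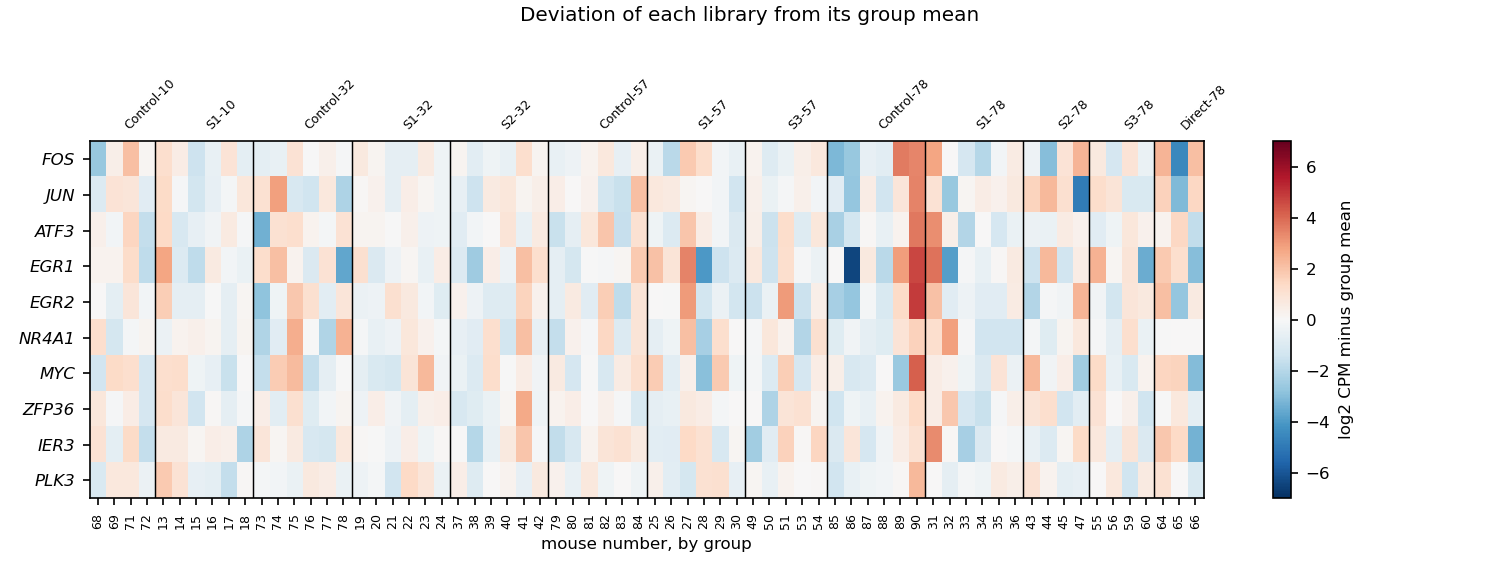
Deviation of each library (columns, by mouse number within group) from its group mean in log2 CPM for each of the 10 genes (red above, blue below the mean). Mouse 90 of Control-78 is above its group mean in all 10 genes, and mouse 31 of S1-78 is highest of its group in 6.

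Cell type markers were compared between mice 89 and 90 and the other 4 controls of week 78. Hepatocyte markers (5 of 7 on the panel, TTR the most abundant) summed to 45706 CPM in mouse 90 and 38229.5 in mouse 89, below the 49266 to 61506 CPM of the other 4. The single markers did not all follow the sum. In mouse 90 APOA1 was below the other 4 (10027 CPM against 11790 to 13578), and TTR and CYP2E1 were inside their range. CPS1 (792 CPM against 191 to 661) and HNF4A (3143 against 729 to 3020) were highest of the 6 in mouse 90. Macrophage markers (6 of 9, LYZ2) summed to 753 and 892 CPM, inside the 570 to 2032 CPM of the others, and endothelial markers (4 of 7, KDR) to 134 and 142, against 118 to 135. Lymphocyte markers (4 of 7, CD79A) summed to 10.1 and 15.1 CPM, against 8.23 to 15.2. Mouse 90 was highest of the 6 for neutrophil markers (3 of 5, S100A9), at 11.5 CPM against 0 to 3.94, for stellate and fibroblast markers (5 of 7, COL1A1), at 115 against 51.7 to 91.1, and for cholangiocyte markers (2 of 4, KRT19), at 54.3 against 4.88 to 19.2. Within these lists S100A9, ELANE, COL1A1, COL1A2, COL3A1 and KRT19 were highest in it. S100A8 (1.04 CPM against 0 to 1.42 in the other 4), ACTA2 (27.1 against 16.6 to 35.9), LRAT (13.9 against 0.834 to 19.2) and KRT7 (7.31 against 1.83 to 7.51) were not. Mouse 90 was lowest for erythroid markers (3 of 4, ALAS2), at 314 CPM against 345 to 868. Nearly all of that sum was ALAS2, at 310 CPM in mouse 90, while HBA-A1 was at 2.44 CPM (0 to 4.17 in the other 4) and HBB-BS at 1.74 (2.44 to 8.34). By group medians ALAS2 made up most of the erythroid sum in all 13 groups, so the erythroid sums given below mainly describe that 1 gene. Pancreas markers (7 of 11, CEL) summed to 4.18 CPM in mouse 90 and 8.55 in mouse 89, inside the 2.11 to 15.9 of the others, and no marker on the panel was at 0 in all 6 controls. Their part in the high FOS and EGR1 of these mice was not tested.

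FOS, the partner that joins JUN proteins in the AP-1 transcription factor, had group medians that ran from 86.5 CPM in Direct-78 (0 to 107), 62.3 in S3-78 (22.8 to 102) and 56.9 in Control-78 (9.45 to 1126) down to 10.1 in S2-32 (5.83 to 24.9) and 6.90 in S1-32 (4.28 to 12.2). Between them came S3-57 at 38.9 (17.3 to 56.6), Control-57 at 35.02 (23.7 to 60.0), Control-32 at 34.4 (22.1 to 74.5), Control-10 at 24.3 (2.36 to 90.2), S1-10 at 17.7 (5.45 to 39.3), S1-57 at 16.6 (5.14 to 77.7), S2-78 at 15.6 (0.637 to 61.2) and S1-78 at 11.2 (2.41 to 88.7). In week 32 every S1 library was below every control. FOS fell in S1-32, with a mean of 7.68 ± 3.52 CPM (SD, n = 6) against 39.5 ± 19.1 (n = 6), a log2 fold change of -2.36 ± 0.86 (SE, adjusted p = 0.0342). That call was lost without mouse 21, 22 or 24 of S1-32 or mouse 75 of Control-32 (log2 fold change -2.32 to -2.11, adjusted p from 0.0574 to 0.0829) and with total count as a covariate (-2.26, adjusted p = 0.201, the highest over 9 other settings, whose lowest was 0.00276).

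In week 78 the FOS comparisons rested on the 2 high controls. The Control-78 values were 9.45, 13.3, 53.2, 60.7, 966 and 1126 CPM, a mean of 371 ± 525 (SD, n = 6), and the S1-78 values had a lowest of 2.41, a median of 11.2 and a highest of 88.7 in mouse 31. The 4 S2-78 values were 0.637, 8.58, 22.7 and 61.2 CPM. Of these libraries, 5 of 6 in S1-78 and 3 of 4 in S2-78 were below the control median, and the groups overlapped. FOS fell in S1-78 (log2 fold change -4.01 ± 0.90, adjusted p = 0.00609) and in S2-78 (-4.01 ± 1.07, adjusted p = 0.0342). Without mice 89 and 90 the values were -0.56 (adjusted p = 0.836) and -0.53 (adjusted p = 0.879), a setting chosen after seeing the data. Over the 9 other settings the adjusted p ran from 0.000141 to 0.836 for S1-78 and from 0.00329 to 0.879 for S2-78. For S1-78 no single library ended the call, while removing mouse 31 or 89 gave -5.31 or -3.25. In S2-78 the call was lost without mouse 43, 44 or 45 of S2-78, mouse 89 (-3.22) or 90 (-3.45) of Control-78, or mouse 39 or 40 of S2-32 (adjusted p from 0.0506 to 0.134), and without mouse 47 the value was -5.07. Fitted on the compared groups alone, the adjusted p was 0.191 for S1-78 and 0.3495 for S2-78, and S2-78 also lost the call under RLE (0.0527) and upper-quartile (0.0689) scaling and with the covariate (0.0557).

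FOS did not pass in S3-78 (22.8, 38.8, 85.8 and 102 CPM; log2 fold change -2.57, adjusted p = 0.0713), unless control mouse 86 was left out (-2.82, adjusted p = 0.0434), or with DESeq2 (-2.31, adjusted p = 0.0436) or all 78 libraries (-2.70, adjusted p = 0.0269, the highest over 9 other settings being 0.585). In Direct-78 it passed with all 78 libraries alone (-2.43, adjusted p = 0.0231, the highest of the 9 being 0.495) and was at -2.52 with the 68 libraries (adjusted p = 0.0872), where mouse 65 had no FOS count beside 107 CPM in mouse 64 and 86.5 in mouse 66. With age, FOS was higher in Control-78 than in Control-10 (2.36, 22.0, 26.7 and 90.2 CPM), at a log2 fold change of 3.40 ± 1.03 (adjusted p = 0.0443), with 2 of the 6 older mice, 89 and 90, above all 4 younger ones. Without both of them the value was -0.03 (adjusted p = 0.998, the highest over 9 other settings, the lowest being 0.00488). It was lost without mouse 68, 69 or 72 of Control-10 or mouse 89 (2.66) or 90 (2.84) of Control-78 (adjusted p from 0.106 to 0.143), and was 4.43 without mouse 71 of Control-10. RLE (0.0586) and upper-quartile scaling (0.0698), all panel genes (0.0517), the edgeR filter (0.0515), the covariate (0.0560) and a fit of the compared groups alone (0.270) gave adjusted p above 0.05 as well.

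JUN, the AP-1 subunit that binds DNA with FOS or with itself, had its highest median in Control-10, at 192 CPM (83.2 to 312), and its lowest in Control-32, at 16.8 (2.81 to 120). In order between them were S2-32 at 121 (35.01 to 171), S1-10 at 91.3 (39.4 to 251), Control-78 at 71.6 (10.0 to 808), S2-78 at 66.3 (0 to 128), S1-32 at 65.9 (39.2 to 86.96) and S1-78 at 56.8 (6.04 to 86.5). Then came S3-57 at 53.6 (41.6 to 74.3), S1-57 at 43.8 (16.02 to 69.7), S3-78 at 41.3 (15.99 to 84.3), Control-57 at 40.4 (11.5 to 156) and Direct-78 at 20.3 (0 to 22.7). The lowest control group was the one of week 32, and the 3 Direct-78 mice were all below the median of their controls. JUN fell in Direct-78, at 22.7, 20.3 and 0 CPM (14.3 ± 12.5, SD, n = 3) against 186 ± 308 (n = 6), a log2 fold change of -3.68 ± 1.13 (adjusted p = 0.0160), with 1 of the 3 below every control. The call was lost without mouse 65 (-2.87, adjusted p = 0.0678) or 66 (-3.94, adjusted p = 0.0533) of Direct-78 or mouse 90 of Control-78 (-2.09, adjusted p = 0.119). It was also lost without mice 89 and 90 (-1.59, adjusted p = 0.261), with the covariate (adjusted p = 0.498) and with only the compared groups (adjusted p = 0.1003), and over the 9 other settings the adjusted p ran from 0.00363 to 0.498. Control-32 mouse 74, the highest of its group at 120 CPM where the other 5 were 2.81 to 33.9, held back further calls. Without it, JUN passed above Control-32 in S1-32 (log2 fold change 2.09, adjusted p = 0.0344) and in S2-32 (2.88, adjusted p = 0.0101), and below Control-10 in Control-32 (-3.69, adjusted p = 0.00899). With it, those 3 values were 0.94, 1.74 and -2.55, none past the test, and the last also passed without mouse 47 of S2-78 (-2.56, adjusted p = 0.0487) and with DESeq2 (adjusted p = 0.0279, the highest over 9 other settings being 0.419).

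ATF3, a stress-induced factor that pairs with JUN and often represses transcription, was highest in Control-10, at 38.9, 26.3, 88.4 and 9.04 CPM (40.7 ± 34.1, SD, n = 4). In S1-10 it ran from 1.33 to 12.1 CPM with a median of 3.51 (4.90 ± 3.93, n = 6). All 6 S1-10 mice were below the control median and 5 of 6 below every control. ATF3 fell in S1-10, with a log2 fold change of -3.03 ± 0.91 (adjusted p = 0.0338). The call was lost without any of mice 14 to 18 of S1-10 or mouse 68 (-3.05) or 71 (-2.32) of Control-10 (adjusted p from 0.0517 to 0.171), and with the covariate (0.0532, the highest over 9 other settings, the lowest being 0.00847). In week 32 the S1 mice lay between 1.91 and 3.62 CPM (median 2.86), inside a control range of 0 to 20.3 (median 14.0) that had mouse 73 at 0 and the other 5 at 7.69 or more. All 6 S1-32 mice were below the control median. ATF3 fell in S1-32 as well (2.72 ± 0.69 CPM against 12.4 ± 7.89, n = 6 each), with a log2 fold change of -2.18 ± 0.85 (adjusted p = 0.0458). That value stood near the threshold and was lost without any 1 of mice 19 to 24 of S1-32 or mice 74, 75, 76 or 78 of Control-32 (log2 fold change -2.32 to -2.03, adjusted p from 0.0512 to 0.0932). With all panel genes (0.0546), all 78 libraries (0.0948) or the covariate (0.258) the adjusted p was above 0.05, and the lowest over 9 other settings was 0.0135. The other ATF3 medians were 14.4 in S2-78 (10.2 to 21.8), 11.8 in Control-78 (2.13 to 186), 10.7 in S3-78 (5.62 to 19.1), 10.2 in S2-32 (5.86 to 21.0), 9.35 in S3-57 (1.87 to 17.2) and 9.12 in Control-57 (1.85 to 31.03). Direct-78 had 7.91 (1.35 to 18.9), S1-57 had 6.27 (3.27 to 31.2) and S1-78 had 4.59 (0.610 to 58.7). Without mouse 31, the highest S1-78 library, ATF3 passed below Control-78 (log2 fold change -3.39, adjusted p = 0.0235), where with it the value was -1.57 and did not pass.

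EGR1, a zinc finger factor induced through serum response factor, varied most between libraries of a group. Control-78 had the highest median, 97.7 CPM, from 0 in mouse 86 to 1969.6 in mouse 90. After it came S3-78 at 39.01 (1.52 to 147), S1-10 at 38.5 (13.9 to 335), S2-32 at 37.2 (5.45 to 151), Control-10 at 23.9 (5.17 to 50.0), S2-78 at 17.8 (6.43 to 94.3) and Control-32 at 16.9 (0 to 47.1). The lower medians were 16.5 in S1-57 (0 to 161), 14.8 in Direct-78 (0 to 23.7), 13.7 in S3-57 (4.68 to 32.96), 12.2 in S1-78 (0 to 179), 10.6 in Control-57 (4.12 to 40.3) and 8.05 in S1-32 (3.803 to 19.6). In Direct-78 the 3 values were 23.7, 14.8 and 0 CPM (12.9 ± 12.0, SD, n = 3), against 0, 19.9, 75.9, 120, 579 and 1969.6 in Control-78. All 3 were below the control median, none was below all controls, and the groups overlapped. EGR1 fell in Direct-78, with a log2 fold change of -5.13 ± 1.69 (adjusted p = 0.0238). The call was lost without mouse 64 (-5.95), 65 (-4.97) or 66 (-4.54) of Direct-78 or mouse 90 of Control-78 (-3.60), at adjusted p from 0.0591 to 0.105. It was also lost without mice 89 and 90 (-1.996, adjusted p = 0.335), with the covariate (0.252) and with only the compared groups (0.0955), and the lowest adjusted p over 9 other settings was 0.00291. In S1-78 the log2 fold change of -3.57 did not pass (adjusted p = 0.0788) unless mouse 31 was left out (-5.45, adjusted p = 0.0108) or DESeq2 was used (-3.48, adjusted p = 0.0329, the highest over 9 other settings being 0.909). Against Control-10, Control-78 was at 4.17 (adjusted p = 0.0686), past the test without control mouse 86 (4.42, adjusted p = 0.0471) with all 78 libraries (4.60, adjusted p = 0.0326) and with DESeq2 (adjusted p = 0.0131, the lowest over 9 other settings, the highest being 0.771).

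EGR2, a related zinc finger factor, was counted too rarely for firm values, and 17 of 68 libraries had none. Its highest medians were 8.11 CPM in Direct-78 (0 to 24.7), 7.88 in S3-78 (2.00 to 11.7), 7.31 in Control-32 (0 to 22.4), 4.30 in Control-10 (2.58 to 9.19) and 3.95 in Control-57 (0.371 to 13.4). Then came Control-78 at 3.21 (0 to 178), S2-78 at 2.41 (0 to 18.1), S1-57 at 0.954 (0 to 16.02) and S3-57 at 0.935 (0 to 19.2). The lowest were S2-32 at 0.762 (0 to 3.94), S1-32 at 0.412 (0 to 2.62), S1-10 at 0.230 (0 to 3.62) and S1-78 at 0.152 (0 to 5.50). The fitted log2 fold change of EGR2 was below 0 in all 9 DCA comparisons and passed in none. The medians of Direct-78 and S3-78 were nevertheless above that of Control-78, whose mouse 90 had 178 CPM, and leaving out mice 89 and 90 gave 2.65 and 2.02. The 6 S1-32 libraries were all below the median of Control-32 (log2 fold change -3.24 ± 1.32, adjusted p = 0.0559). It passed without mouse 21 of S1-32 (-3.95) or mouse 73 (-3.59), 74 (-3.38) or 77 (-3.53) of Control-32, and in 19 further fits that left out a library of another group (adjusted p from 0.0416 to 0.0497 in all 23). Those 19 were mice 27, 28 and 30 of S1-57, 31 and 32 of S1-78, 39, 40 and 41 of S2-32, 45 and 47 of S2-78, 51 and 53 of S3-57, 56 of S3-78, 65 of Direct-78, 84 of Control-57 and 85, 86, 88 and 90 of Control-78, at log2 fold changes of -3.39 to -3.23. DESeq2 (0.0217), RLE (0.0468) and upper-quartile scaling (0.0377), the compared groups alone (0.0209) and leaving out mice 89 and 90 (0.0390) also passed it, and the highest adjusted p over 9 other settings was 0.440. In S1-78 the value was -4.64 ± 1.35 with 5 of 6 below the control median (adjusted p = 0.0558), and it passed without mouse 31 of S1-78 (-6.46, adjusted p = 0.0213), without mouse 85 (-4.85) or 86 (-4.89) of Control-78, and without mouse 27 of S1-57, 43 or 47 of S2-78, or 49 or 51 of S3-57 (log2 fold change -4.65 to -4.63, adjusted p from 0.0388 to 0.0498 for these 7). DESeq2 (-4.65, adjusted p = 0.0170) and the covariate (-5.36, adjusted p = 0.0221) passed it too, and the highest adjusted p over 9 other settings was 0.930. In S1-10 it did not pass (-2.63, adjusted p = 0.288), and of the 9 other settings only the 1 with all 78 libraries passed it (-4.66, adjusted p = 0.0269, the highest of the 9 being 0.321).

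NR4A1, an orphan nuclear receptor induced by cyclic AMP and growth signals, was the gene with no count in any Direct-78 library. Its medians elsewhere were low, at 6.54 CPM in S2-78 (3.19 to 11.2), 4.76 in Control-57 (0.780 to 13.4), 4.46 in S3-78 (3.19 to 13.8), 3.59 in Control-78 (2.37 to 17.7), 3.43 in S3-57 (0 to 7.02) and 3.37 in Control-10 (0.862 to 8.26). The lower ones were 3.19 in S1-10 (1.41 to 3.63), 3.18 in S1-57 (0 to 18.2), 2.04 in Control-32 (0 to 21.0), 1.21 in S1-32 (0.691 to 2.96), 0.610 in S1-78 (0 to 15.4) and 0.576 in S2-32 (0 to 8.53). The Control-78 values were 2.37, 2.44, 3.02, 4.17, 10.5 in mouse 89 and 17.7 in mouse 90. A count of 0 in Direct-78 allows up to 2.96 to 4.05 CPM in a library (3 counts, counting error only), and 3 of the 6 controls were at or under the higher of these. NR4A1 fell in Direct-78 (adjusted p = 0.0331) and was at least 1.82-fold lower than the control mean of 6.71 ± 6.22 CPM (SD, n = 6), with the floor at 3 counts per library (mean 3.69 CPM). The fitted log2 value, -6.93, depends on the prior count and is no bound. The call was lost without mouse 64, 65 or 66 of Direct-78 or mouse 90 of Control-78 (adjusted p from 0.0620 to 0.116), and without mouse 90 the bound was 1.22-fold. Without mice 89 and 90 (adjusted p = 0.1196) the control mean was 3.0002 CPM, under the mean floor of 3.69 CPM, so that no bound on the fold could be given. The floor is set for single libraries and does not pool the 3 Direct-78 libraries. RLE (0.0547), upper-quartile scaling (0.0618) and the covariate (0.104) lost the call too, and with all 78 libraries the fitted value was 1.71 (adjusted p = 0.225, the highest over 9 other settings, the lowest being 0.0266). In S1-32 the log2 value of -2.29 (adjusted p = 0.0774) passed without mouse 74 (-2.52, adjusted p = 0.0479) or 77 (-2.69, adjusted p = 0.0401) of Control-32, with DESeq2 (-2.65, adjusted p = 0.0237) and under upper-quartile scaling (-2.796, adjusted p = 0.0422, the highest over 9 other settings being 0.469).

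MYC, the transcription factor that drives growth and cell cycle entry, passed in no comparison. Its highest median was 30.3 CPM in Control-10 (8.26 to 58.2), followed by Direct-78 at 19.8 (0 to 20.2), S2-32 at 11.6 (6.22 to 31.4), S3-78 at 11.2 (5.30 to 31.2) and S3-57 at 9.87 (4.26 to 37.1). Next came S1-10 at 7.76 (2.34 to 21.3), Control-78 at 6.23 (0.657 to 168), S1-57 at 6.16 (0 to 23.5), S1-78 at 5.98 (2.41 to 12.2) and S2-78 at 4.43 (0 to 22.2). The lowest were Control-57 at 4.20 (0.916 to 8.31), S1-32 at 3.72 (1.74 to 28.7) and Control-32 at 1.42 (0 to 12.2). The 4 Control-10 mice split into 58.2 and 51.1 against 9.47 and 8.26 CPM. Against Control-10, MYC was at -2.91 in Control-32 (adjusted p = 0.113) and -2.93 in Control-57 (adjusted p = 0.0933), with 4 and 5 of 6 mice below all 4 younger ones. The first passed without mouse 74 of Control-32 (-3.29, adjusted p = 0.0482).

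ZFP36, the protein that binds AU-rich mRNAs and speeds their decay, was highest in Direct-78, at 83.01, 140.4 and 52.7 CPM (92.0 ± 44.5, SD, n = 3), and lowest in S1-32. The order of medians was 83.01 in Direct-78, 58.1 in S2-78 (18.1 to 106), 53.96 in S3-78 (17.5 to 98.0), 33.04 in S3-57 (5.61 to 61.5), 30.4 in Control-10 (10.8 to 44.8), 28.8 in Control-78 (10.4 to 77.3) and 24.8 in Control-32 (12.97 to 54.2). It went on with 20.6 in S2-32 (12.0 to 172), 20.4 in S1-57 (13.4 to 34.7), 19.9 in S1-78 (5.17 to 65.8), 19.6 in Control-57 (7.78 to 24.7), 12.1 in S1-10 (4.24 to 29.6) and 9.44 in S1-32 (5.27 to 12.6). Every S1-32 mouse was below every Control-32 mouse. ZFP36 fell in S1-32, at 9.34 ± 3.20 CPM against 27.5 ± 15.3 (SD, n = 6 each), a log2 fold change of -1.55 ± 0.58 (adjusted p = 0.0390). The call was lost without mouse 19 (-1.48), 21 (-1.57) or 22 (-1.43) of S1-32 or mouse 75 of Control-32 (-1.25), at adjusted p from 0.0594 to 0.129. It was also lost with all panel genes (0.0522), all 78 libraries (0.0686) and the covariate (-0.41, adjusted p = 0.776), and the lowest adjusted p over 9 other settings was 0.0114.

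ZFP36 was higher in mice still on DCA than in S1 mice of the same age in weeks 32 and 78, and did not pass in week 57 (adjusted p from 0.863 to 0.998 over 9 other settings). S2-32 was at 44.8 ± 62.6 CPM against 9.34 ± 3.20 in S1-32 (SD, n = 6 each), with all 6 above the median of S1-32 and 5 of 6 above all of it. ZFP36 rose in that comparison (log2 fold change 2.25 ± 0.59, adjusted p = 0.0224), with mouse 41 at 172 CPM and the other 5 at 12.0 to 29.2. Without mouse 41 the value was 1.07 (adjusted p = 0.386), and the call was also lost without mouse 21 (2.24, adjusted p = 0.0566) or 22 (2.13, adjusted p = 0.0554) of S1-32, with all 78 libraries (0.0780) and with the covariate (0.552, the highest over 9 other settings, the lowest being 0.00298). In week 78, Direct-78 was above S1-78 (23.7 ± 22.1 CPM, n = 6), with all 3 above its median and 2 of 3 above all of it, and ZFP36 rose by a log2 fold change of 1.97 ± 0.66 (adjusted p = 0.0257). It was lost without mouse 33 (1.77) or 34 (1.75) of S1-78 or mouse 64 (2.04) or 65 (1.72) of Direct-78, at adjusted p from 0.0575 to 0.0724, was 2.62 without mouse 32 of S1-78, and turned to -0.44 with the covariate (adjusted p = 0.882, the highest over 9 other settings, the lowest being 0.0109). With only the compared groups the adjusted p was 0.108. Totals did not overlap between Direct-78 and S1-78 (1665464 to 3301147), and the part of depth in these changes was not separated from that of DCA. Against Control-78, ZFP36 in Direct-78 was at 1.40 (adjusted p = 0.1104) and passed as higher with DESeq2 (1.75, adjusted p = 0.0475) and with all 78 libraries (1.59, adjusted p = 0.0383), while with the covariate it was at -1.899 (adjusted p = 0.377, the highest over 9 other settings). Marker sums were apart as well. Hepatocyte sums were 20686 to 34109 CPM in Direct-78 against 42149.8 to 70868 in S1-78, and lymphocyte sums 18.9 to 40.5 against 3.36 to 14.2. In S2-32, macrophage sums were 592 to 1069.7 CPM against 1294 to 1684 in S1-32 and endothelial sums 148 to 236 against 291 to 393, while stellate and fibroblast sums (339 to 889.9 against 125 to 348) overlapped slightly. Mouse 41 of S2-32, the mouse at 172 CPM of ZFP36, had hepatocyte markers at 31277 CPM against 61190 to 83953 in the other 5, and the highest sums of its group for stellate and fibroblast (889.9), neutrophil (15.8), lymphocyte (15.1) and pancreas markers (50.5). The part of these markers in ZFP36 was not tested.

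IER3, an early response protein that modulates ERK signalling and cell survival, gave the change against controls whose call was lost in the fewest fits. Its medians were 21.6 CPM in Direct-78 (0 to 31.6), 21.2 in S3-78 (8.38 to 34.4), 12.6 in Control-32 (3.36 to 17.7), 10.4 in S3-57 (1.04 to 30.9), 8.48 in Control-57 (1.17 to 13.3) and 7.38 in Control-78 (2.41 to 14.3). Lower down were S1-57 at 6.10 (2.89 to 21.1), S1-78 at 4.86 (0.305 to 57.7), Control-10 at 4.70 (0.431 to 9.76), S1-10 at 4.41 (0 to 5.44), S2-32 at 4.04 (0.389 to 18.4), S2-78 at 3.98 (1.91 to 12.9) and S1-32 at 1.47 (0.872 to 2.31). Every S1-32 mouse was below every control of its week. IER3 fell in S1-32, at 1.44 ± 0.52 CPM against 10.99 ± 6.26 (SD, n = 6 each), a log2 fold change of -2.86 ± 0.89 (adjusted p = 0.0142). No single library ended that call (adjusted p from 0.00928 to 0.0329 without each of the 12 compared libraries), and of 9 other settings the covariate alone did (-1.93, adjusted p = 0.280, the lowest over the 9 being 0.00193). Over these 9 the log2 fold change ran from -3.22 to -1.93, and the S1-32 libraries held 2 to 7 counts of IER3 each.

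PLK3, a polo-like kinase of the stress response, was counted in all 68 libraries. Its medians were 349 CPM in Control-78 (168 to 2031), 309 in Control-57 (231 to 559), 262 in S3-78 (78.4 to 342), 252 in S3-57 (165 to 286), 217 in Control-10 (83.8 to 299.8) and 201 in S2-32 (96.9 to 292). The lower ones were 178 in S1-57 (77.2 to 399), 172 in S1-10 (62.3 to 698), 122 in S2-78 (81.05 to 267), 113 in Control-32 (88.9 to 203), 99.4 in S1-32 (46.2 to 315), 98.5 in Direct-78 (45.9 to 206.5) and 92.3 in S1-78 (61.8 to 150). Every S1-78 mouse was below every Control-78 mouse, and 2 of the 3 Direct-78 mice (206.5, 98.5 and 45.9 CPM) were. PLK3 fell in S1-78, at 100.1 ± 32.7 CPM against 605 ± 704 (SD, n = 6 each), a log2 fold change of -2.59 ± 0.51 (adjusted p = 0.00243). It fell in Direct-78 too, with all 3 below the control median (log2 fold change -2.37 ± 0.67, adjusted p = 0.00960). Without control mouse 90 neither passed (-1.67, adjusted p = 0.0564, and -1.45, adjusted p = 0.0742), and without mice 89 and 90 they were -1.55 (adjusted p = 0.112) and -1.28 (adjusted p = 0.139). The Direct-78 call was also lost without mouse 66 (-1.96, adjusted p = 0.0789) and with the covariate (0.170), and was -3.07 without mouse 64. With only the compared groups the adjusted p was 0.0698 in S1-78 and 0.0766 in Direct-78, and the lowest over 9 other settings was 1.87e-05 and 0.00515. In S2-78 the value of -2.03 ± 0.59, with 3 of 4 below every control, did not pass (adjusted p = 0.0537). It passed without mouse 43 of S2-78 (-2.48) or mouse 85 (-2.18) or 86 (-2.16) of Control-78, and in 14 fits without a library of another group (adjusted p from 0.0326 to 0.0498 in all 17). Those 14 were mice 13 and 17 of S1-10, 22 of S1-32, 27 and 28 of S1-57, 32 of S1-78, 41 of S2-32, 59 of S3-78, 64, 65 and 66 of Direct-78, 68 of Control-10 and 73 and 78 of Control-32, at log2 fold changes of -2.03 to -1.99. DESeq2 passed it as well (-1.83, adjusted p = 0.0198, the highest over 9 other settings being 0.491).

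Comparisons of the DCA groups with controls asked what exposure and its withdrawal left behind. At the end of 10 weeks of DCA, ATF3 was lower in S1-10 and no other immediate-early gene passed. That is 1 of 10 genes (1 at an unadjusted p under 0.05, 1 with DESeq2), where 4.40% of all tested genes were lower and 5.49% changed in either direction. The median log2 fold change of the 10 was -0.75, beside -0.03 over all genes. S1-10 mouse 17 held 3167 CPM of pancreas markers, and the other 5 held 8.46 or less. Stellate and fibroblast markers summed to 84.6 to 166 CPM in S1-10 against 169 to 428, erythroid markers to 282 to 400.6 against 43.1 to 202 and lymphocyte markers to 6.45 to 15.3 against 0 to 5.60, all without overlap. Control-10 mouse 68 was apart from the other 3 controls in hepatocyte (14582 CPM against 50910 to 60998), macrophage (406 against 782 to 1015) and erythroid markers (43.1 against 155 to 202). It was also lowest for stellate and fibroblast (169 against 333 to 428) and endothelial markers (199 against 249 to 278). ATF3 did not pass without mouse 68 (-3.05, adjusted p = 0.171). The part of these markers in the lower ATF3 was not tested.

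After 22 weeks on water, FOS, ATF3, ZFP36 and IER3 were lower in S1-32. JUN, MYC and PLK3 were not lower, and EGR1, EGR2 and NR4A1 did not pass. That is 4 of 10 genes (6 at an unadjusted p under 0.05, 6 with DESeq2), in a comparison where 17.2% of all genes were lower and 29.1% changed in either direction. The median of the 10 was -1.87, beside 0.05 over all genes. S1-32 totals were higher than those of Control-32 without overlap, and with total count as a covariate none of the 4 passed. Their log2 fold changes were then -2.26 for FOS and -2.03 for ATF3, near -2.36 and -2.18, but -1.93 for IER3 and -0.41 for ZFP36, in place of -2.86 and -1.55. Macrophage marker sums were also apart, at 1294 to 1684 CPM in S1-32 against 485 to 1193, while erythroid sums (187 to 298 against 159 to 518) and hepatocyte sums (45360 to 65589 against 33566 to 57939) overlapped. Endothelial sums were 291 to 393 CPM in S1-32 against 104 to 324 (medians 322 and 167), and only Control-32 mouse 74, at 324, was in the range of S1-32. That mouse also had the lowest erythroid sum of Control-32, at 159 CPM against 316 to 518 in the other 5. Pancreas markers reached 1848 CPM in mouse 19, and the part of these markers in the lower FOS, ATF3, ZFP36 and IER3 was not tested.

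With DCA continued to week 32, none of the 10 passed in S2-32 (edgeR; 2 lower and 1 higher at an unadjusted p under 0.05, 0 with DESeq2), beside 10.7% of all genes. FOS was below the control median in 6 of 6 mice (log2 fold change -1.78 ± 0.84, adjusted p = 0.154) and passed with only the compared groups (-1.898, adjusted p = 0.0348, the highest over 9 other settings being 0.2204). EGR2 was below it in 6 of 6 (-3.07 ± 1.33, adjusted p = 0.1202) and JUN above it in 6 of 6 (1.74 ± 0.76, adjusted p = 0.126). The median of the 10 was 0.24, beside 0.05, and was 0.11 under RLE and 0.0027 under upper-quartile scaling. In week 57 none passed in S1-57 or S3-57 (edgeR; 0 at an unadjusted p under 0.05 and 0 with DESeq2 in each), beside 1.59% and 6.39% of all genes. The medians of the 10 were -0.04 and 0.05, beside 0.07 and 0.01, and the first was 0.15 under RLE and 0.19 under upper-quartile scaling and the second 0.086 and 0.091. Libraries of S3-57 were shallower than those of Control-57 without overlap.

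In week 78 the DCA groups share 1 control group. Most of the 10 genes had a fitted log2 fold change below 0 in each DCA group. By group median, most were also below the controls in S1-78 and in S2-78. The median of S3-78 was above that of the controls for FOS, EGR2, NR4A1, MYC, ZFP36 and IER3. It was below for JUN, ATF3, EGR1 and PLK3. The median of Direct-78 was above for FOS, EGR2, MYC, ZFP36 and IER3, and below for the other genes. FOS and PLK3 were lower in S1-78, 2 of 10 genes (6 at an unadjusted p under 0.05, 4 with DESeq2), beside 0.816% of all genes lower and 1.81% in either direction. FOS alone was lower in S2-78, 1 of 10 (3 at an unadjusted p under 0.05, 2 with DESeq2), beside 0.816% and 1.63%. None passed in S3-78 (edgeR; 4 at an unadjusted p under 0.05, 1 with DESeq2), beside 13.3% in either direction. With all 78 libraries JUN (-2.54, adjusted p = 0.0395), EGR1 (-3.59, adjusted p = 0.0381) and PLK3 (-1.90224, adjusted p = 0.0491) passed there beside FOS, where with 68 they were -2.02, -3.02 and -1.36, and when mice 89 and 90 were left out 0.0070, 0.074 and -0.33. EGR1, JUN, NR4A1 and PLK3 were lower in Direct-78, 4 of 10 (5 lower and ZFP36 higher at an unadjusted p under 0.05, and the same 4 lower and ZFP36 higher with DESeq2), beside 18.7% lower and 24.4% in either direction. The medians of the 10 were -2.05 in S1-78, -1.77 in S2-78, -1.56 in S3-78 and -2.21 in Direct-78 (-1.81 with NR4A1 at its bound), beside 0.07, 0.06, 0.07 and -0.33 over all genes.

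**Figure D3:**
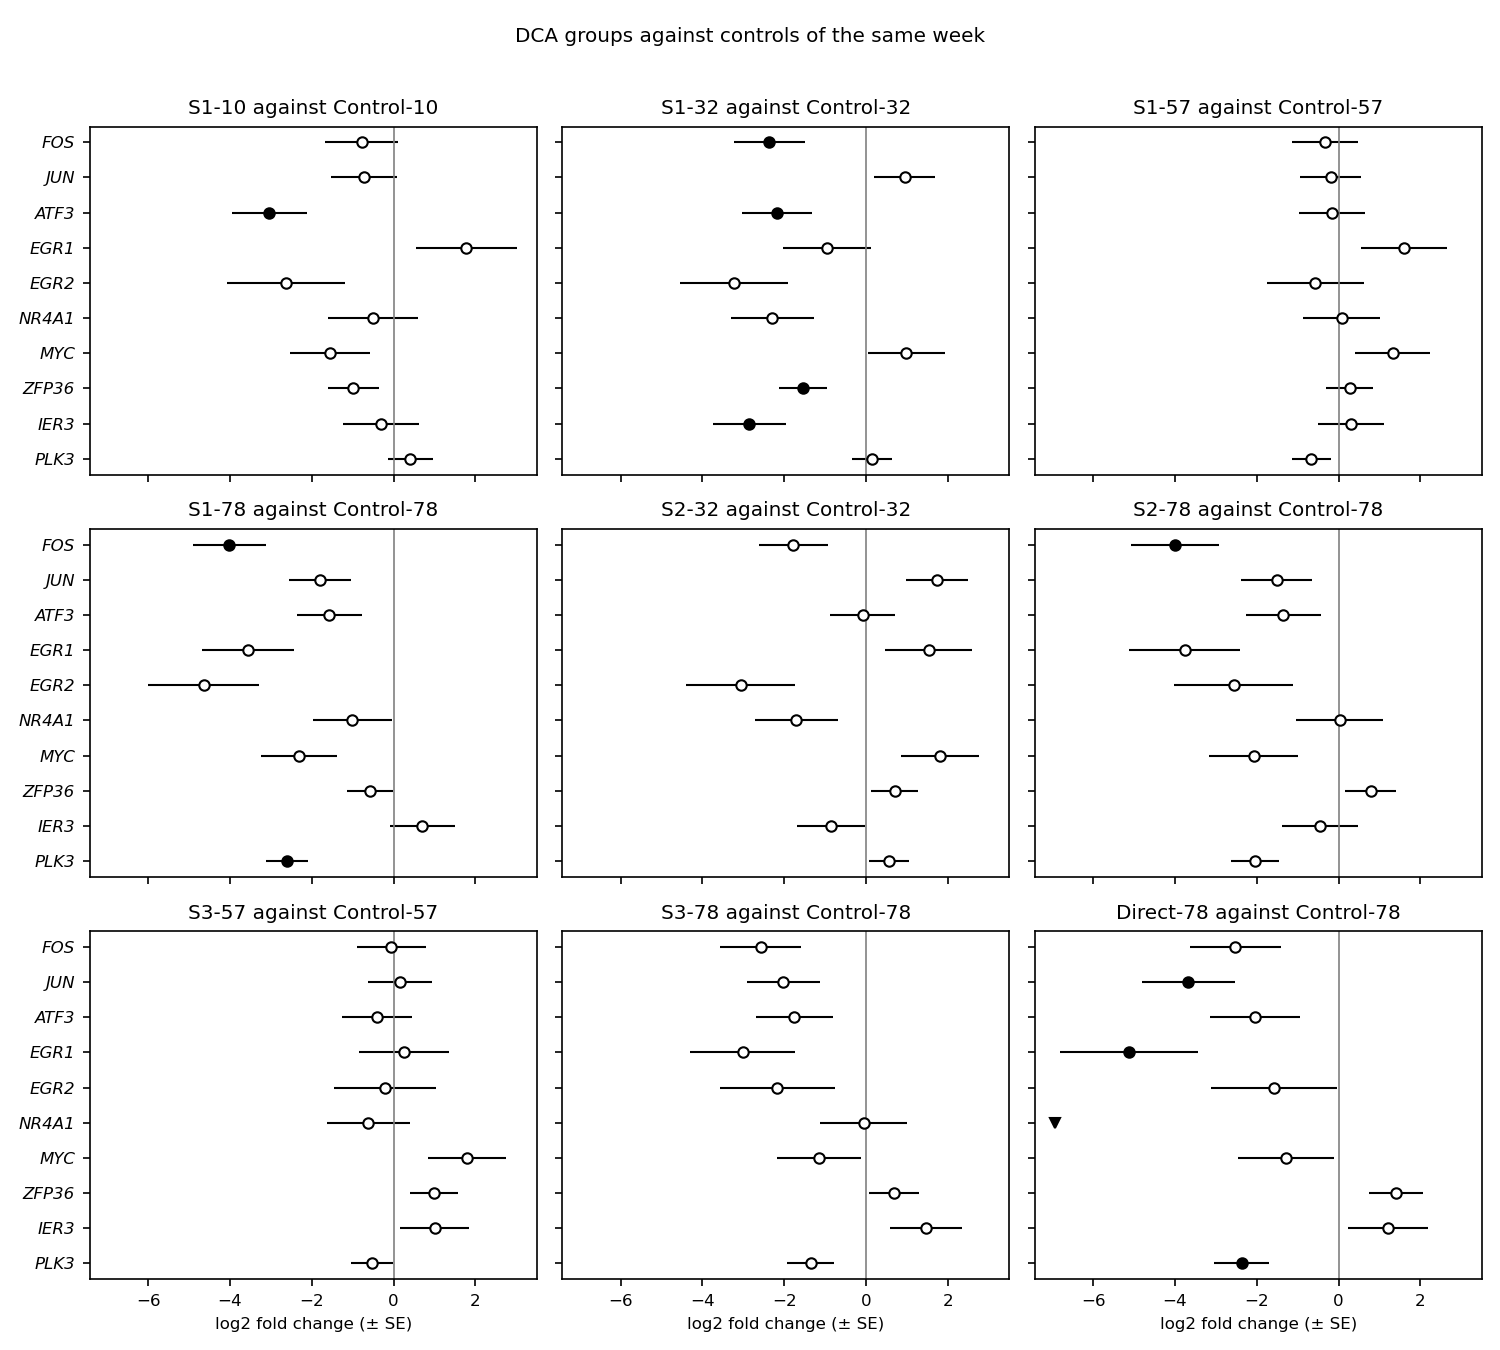
Log2 fold change (horizontal axis, ± SE) of each gene in each DCA group against the controls of its week, from edgeR. Filled symbols are past both thresholds of the test, the triangle is the fitted value of NR4A1 where Direct-78 had no counts, and all 12 filled symbols lie below 0.

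Without mice 89 and 90, none of the calls of week 78 was kept. PLK3 was then still at -1.55 in S1-78, where all 6 mice (61.8 to 149.6 CPM) were below the other 4 controls (168 to 363.5), and Direct-78 was still at -1.28 for PLK3, -1.996 for EGR1 and -1.59 for JUN. None of the 10 genes passed in any of the 4 groups, and 5 of 10 were below 0 in S1-78, 3 in S2-78, 1 in S3-78 and 4 in Direct-78, in place of 9, 8, 8 and 8. The medians of the 10 were then, in that order, 0.01, 0.35, 0.97 and 0.63. Over all genes the number that passed also went down, from 40 to 14, 36 to 12, 294 to 187 and 539 to 292. Without mouse 90 alone, FOS in S1-78 was the 1 call left, and the medians were -0.32, 0.24, 0.39 and -0.73. Without mouse 89 alone, FOS and PLK3 passed in S1-78, none in S2-78 or S3-78, and 4 of 10 in Direct-78.

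**Figure D4:**
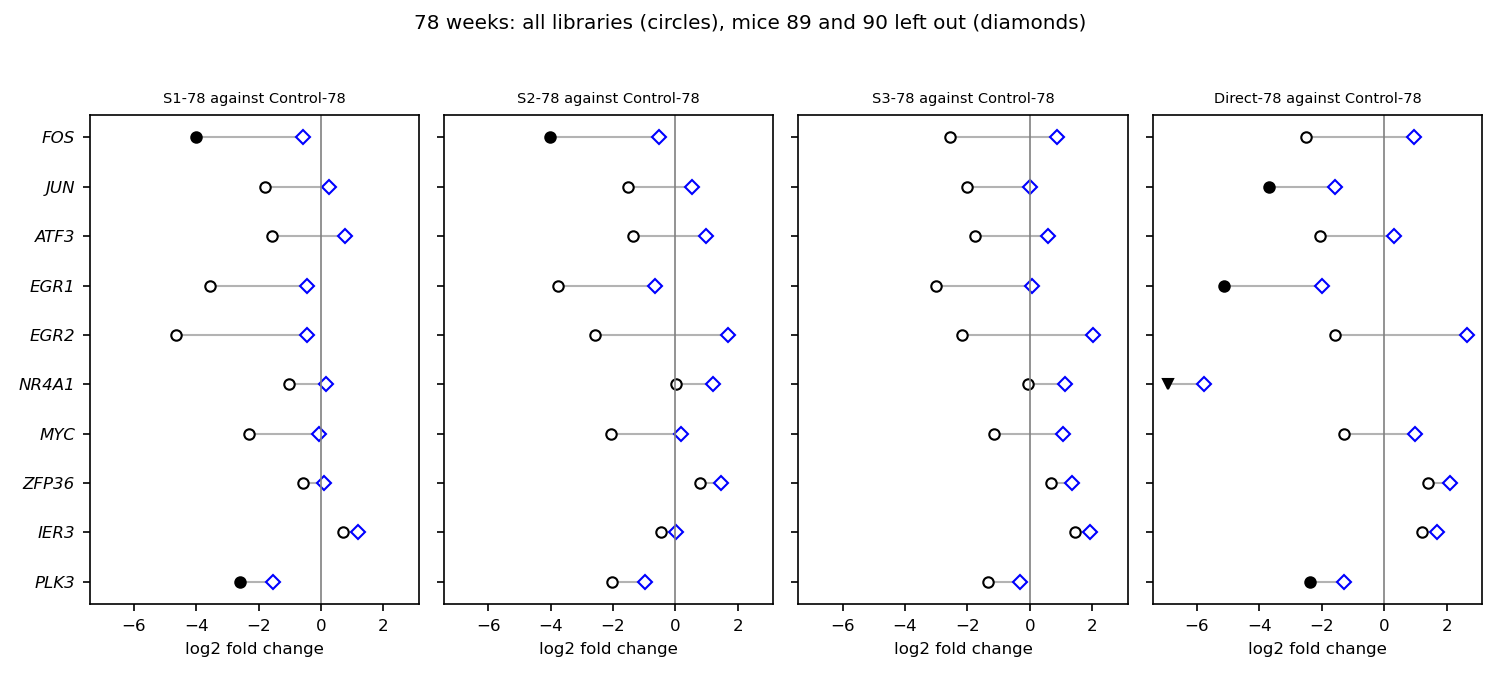
Log2 fold change (horizontal axis) of each gene in the 4 DCA groups of week 78 with all controls (black circles, triangle for NR4A1 without counts in Direct-78) and without mice 89 and 90 (blue diamonds). Filled symbols passed the test, and no diamond is filled.

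Depth and cell type markers also differed in week 78. Totals of S3-78 and Direct-78 were below those of Control-78 without overlap, and hepatocyte markers summed to 20686, 34109 and 29273 CPM in Direct-78, below all 6 controls (38229.5 to 61506). Macrophage sums were 381, 559 and 319 CPM against 570 to 2032, and erythroid sums 65.2, 16.2 and 70.3 against 314 to 868. Cholangiocyte sums were 262, 8.10 and 109 CPM against 4.88 to 54.3. Lymphocyte sums of Direct-78 (18.9 to 40.5 CPM against 8.23 to 15.2) and pancreas sums (17.6 to 38.5 against 2.11 to 15.9) were apart too, and 2 markers each of the neutrophil, lymphocyte and erythroid lists were at 0 in all 3. Stellate and fibroblast sums were 141 to 1513 CPM in S1-78, 109 to 816 in S2-78 and 112 to 149 in Direct-78, against 51.7 to 115, and S1-78 did not overlap. Erythroid sums of S3-78 were 13.3 to 187 CPM against 314 to 868. Mouse 31 of S1-78 had an erythroid sum of 33.7 CPM against 285 to 497 in the other 5. Pancreas markers reached 16534 CPM in S1-78 mouse 36 and 9519 in S2-78 mouse 47, the mouse without a JUN count. The part of these markers in the lower FOS, JUN, EGR1, NR4A1 and PLK3 was not tested.

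Across the 9 comparisons, 63 of 90 log2 fold changes were below 0, against 61 under RLE and 62 under upper-quartile scaling, and all calls were on the lower side in both (11 and 12). With DESeq2 and with all 78 libraries 1 call, ZFP36 in Direct-78, was on the higher side. FOS, ATF3 and EGR2 were below 0 in all 9, NR4A1 in 7, JUN and PLK3 in 6, EGR1 and MYC in 5, IER3 in 4 and ZFP36 in 3. Over all genes 49.3% of 19845 values were below 0, and 74 of 2205 genes (3.36%) were below 0 in all 9. These counts are a description, since comparisons of 1 week share their controls and 4 of the 9 share Control-78. Leaving out mice 89 and 90 put ATF3 above 0 in all 4 of those (0.77, 0.995, 0.57 and 0.31 in S1-78, S2-78, S3-78 and then Direct-78), EGR2 in 3 (-0.45, 1.68, 2.02 and 2.65) and FOS in 2 (-0.56, -0.53, 0.87 and 0.96). The scaling moved the median of all genes from -0.33 to 0.07 (RLE) and 0.12 (upper quartile) in Direct-78, from 0.06 to 0.27 and 0.24 in S2-78, from 0.07 to 0.27 and 0.34 in S3-78 and from 0.05 to -0.07 and -0.24 in S1-32. It was moved from 0.07 to 0.18 and 0.19 in S1-57, from 0.05 to -0.06 and -0.17 in S2-32, and from -0.03 to -0.11 and -0.16 in S1-10. Among untreated ages it was moved from -0.06 to -0.20 and -0.23 in Control-78, from -0.04 to -0.15 and -0.15 in Control-57, and from -0.06 to 0.00028 and 0.064 in Control-32. For Direct-78 against S1-78 it was moved from -0.36 to -0.054 and 0.0086, for the difference between S1-10 and Direct-78 from 0.35 to -0.14 and -0.26, and for that between S1-32 and S1-78 from -0.052 to -0.25 and -0.42.

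Untreated liver showed how these genes stood at each age. FOS was higher in Control-78 than in Control-10, 1 of 10 genes (3 at an unadjusted p under 0.05, 3 with DESeq2), where 2.36% of all genes were higher and 3.95% changed in either direction. None passed in Control-32 (edgeR; 2 at an unadjusted p under 0.05, 1 with DESeq2), beside 1.59% of all genes, or in Control-57 (edgeR; 3 at an unadjusted p under 0.05, 0 with DESeq2), beside 3.45%. The medians of the 10 were -0.27, -0.33 and 0.72 in weeks 32, 57 and 78, and the last was -0.43 without mice 89 and 90, when none of the 10 passed. Under RLE and upper-quartile scaling they were -0.21 and -0.15, -0.42 and -0.42, and 0.54 and 0.48. PLK3 in Control-78 passed with DESeq2 alone (1.49, adjusted p = 0.0497), where with edgeR it was 1.57 (adjusted p = 0.113). These 3 comparisons share Control-10, where mouse 68 had 14582 CPM of hepatocyte markers and the other 3 had 50910 to 60998. Between Control-78 and Control-10, sums were apart for stellate and fibroblast (51.7 to 115 CPM against 169 to 428), endothelial (118 to 142 against 199 to 278), erythroid (314 to 868 against 43.1 to 202) and lymphocyte markers (8.23 to 15.2 against 0 to 5.60), and their part in the higher FOS was not tested.

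Mice still on DCA were set against mice of the same age that had stopped after 10 weeks. In week 32 ZFP36 was higher in S2-32 than in S1-32, 1 of 10 genes (4 at an unadjusted p under 0.05, 1 with DESeq2), where 2.13% of all genes were higher and 3.54% changed in either direction. All 10 genes had a log2 fold change above 0 there, with a median of 0.81 beside 0.01. ATF3 was higher in 6 of 6 S2-32 mice than in every S1-32 mouse (log2 fold change 2.10 ± 0.84) and did not pass (adjusted p = 0.163), except when only the compared groups were fitted (adjusted p = 0.00337, the lowest over 9 other settings, the highest being 0.441). EGR1 passed in that setting too (2.46, adjusted p = 0.0170, the highest over 9 other settings being 0.525), where with all groups it was 2.48 (adjusted p = 0.2201). In week 57 none passed between S3-57 and S1-57 (edgeR; 0 at an unadjusted p under 0.05, 0 with DESeq2), as for all genes (0%, with 111 genes at an unadjusted p under 0.05). In week 78 ZFP36 was higher in Direct-78 than in S1-78, 1 of 10 (2 higher and 1 lower at an unadjusted p under 0.05, 1 with DESeq2), beside 5.35% of all genes higher and 24.5% in either direction. Without S1-78 mouse 31, FOS (2.76, adjusted p = 0.0327) and EGR2 (4.88, adjusted p = 0.0274) passed there as well, where with it they were 1.49 and 3.07. EGR2 also passed there with all 78 libraries (4.03, adjusted p = 0.0248, the highest over 9 other settings being 0.977).

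Some DCA changes differed in size between groups, tested as the difference itself at an adjusted p of 0.05 or less. Between 10 weeks and 78 weeks of continuous DCA, 3 of 10 genes differed (5 at an unadjusted p under 0.05, 3 with DESeq2), beside 33.8% of all genes. EGR1 was at 1.78 in S1-10 and -5.13 in Direct-78, a difference of 6.91 ± 2.06 (adjusted p = 0.00873). That difference was 5.73 without mouse 13 of S1-10, 7.73 without mouse 64 and 6.29 without mouse 66 of Direct-78, and 5.38 without mouse 90. PLK3 was at 0.41 and -2.37, a difference of 2.78 ± 0.86 (adjusted p = 0.0106), which was lost without mouse 66 of Direct-78 (2.35, adjusted p = 0.0502) or mouse 90 of Control-78 (1.86, adjusted p = 0.0585) and was 3.48 without mouse 64. It was also lost with the covariate (2.93, adjusted p = 0.196) and with only the compared groups (2.62, adjusted p = 0.0628). ZFP36 was at -0.98 and 1.40, a difference of -2.38 ± 0.91 (adjusted p = 0.0376). It was lost without mouse 15, 17 or 18 of S1-10, 64 or 65 of Direct-78, 68 or 71 of Control-10 or 87 of Control-78 (log2 difference -2.45 to -2.09, adjusted p from 0.0524 to 0.102), and turned to 1.07 with the covariate (adjusted p = 0.752). Without mice 89 and 90 the EGR1 and PLK3 differences were 3.75 (adjusted p = 0.121) and 1.67 (adjusted p = 0.0992) and that of ZFP36 was -3.13 (adjusted p = 0.0146), while ATF3 (-3.38, adjusted p = 0.0470) and EGR2 (-5.31, adjusted p = 0.0491) came to pass. The EGR1 difference was also lost with the covariate (7.07, adjusted p = 0.233). Other differences that did not pass with edgeR on the 68 libraries passed with all 78, for ATF3 (-2.96, adjusted p = 0.0480), IER3 (-4.15, adjusted p = 0.0109), JUN (2.90, adjusted p = 0.0363) and NR4A1 (adjusted p = 0.0413), and NR4A1 passed in the opposite direction with only the compared groups (adjusted p = 0.0228). Over the 9 other settings the adjusted p ran from 0.000396 to 0.233 for EGR1, from 0.00363 to 0.196 for PLK3 and from 0.00322 to 0.752 for ZFP36.

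Between 22 and 68 weeks after the same 10 weeks of DCA, 1 of 10 genes differed (4 at an unadjusted p under 0.05, 2 with DESeq2), beside 4.44% of all genes. PLK3 was at 0.14 in S1-32 and -2.59 in S1-78, a difference of 2.73 ± 0.70 (adjusted p = 0.0171). It was lost without mouse 22 of S1-32 (2.34, adjusted p = 0.0529) or mouse 90 (1.81, adjusted p = 0.115), and was 1.64 without mice 89 and 90 (adjusted p = 0.207). All 78 libraries (0.140) and the covariate (0.295) gave adjusted p above 0.05 too, and the lowest over 9 other settings was 0.00489. IER3, at -2.86 and 0.71, did not pass (-3.56, adjusted p = 0.0703), except without mouse 33 (-3.82) or 34 (-3.78) of S1-78, 74 (-3.58) or 77 (-3.83) of Control-32 or 86 of Control-78 (-3.82), at adjusted p from 0.0384 to 0.0494, with DESeq2 (-3.89, adjusted p = 0.0161) or under upper-quartile scaling (-4.05, adjusted p = 0.0404, the highest over 9 other settings being 0.999). JUN, at 0.94 and -1.79, passed without mouse 74 of Control-32 (3.88, adjusted p = 0.0217), where with it the difference was 2.73.

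Within groups, most of the 10 genes varied more between libraries than the median gene of the panel. This spread includes counting error, and genes of like level were not compared. ZFP36 and PLK3, the genes counted in every library, had the lowest spread of the 10. The SD of log2 CPM around the group mean had a median of 1.40 over the 10, against 0.93 over all 2205 genes, and 9 of 10 were above that median. EGR1 had an SD of 2.12 (above 99.0% of all genes), FOS 1.60 (95.1%), EGR2 1.55 (94.0%), JUN 1.51 (92.6%) and MYC 1.49 (91.9%). ATF3 was at 1.31 (82.8%), IER3 at 1.30 (82.6%), NR4A1 at 1.23 (76.8%), ZFP36 at 0.96 (51.9%) and PLK3 at 0.85 (44.5%). Without mice 89 and 90 the median of the 10 was 1.34. With a prior count of 0.5 it was 1.74 beside 1.05 over all genes, and 8 of 10 were above that median. ZFP36 (47.6%) and PLK3 (41.4%) were then below it, and the median percentile of the 10 was 80.7 in place of 87.4.

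**Figure D5:**
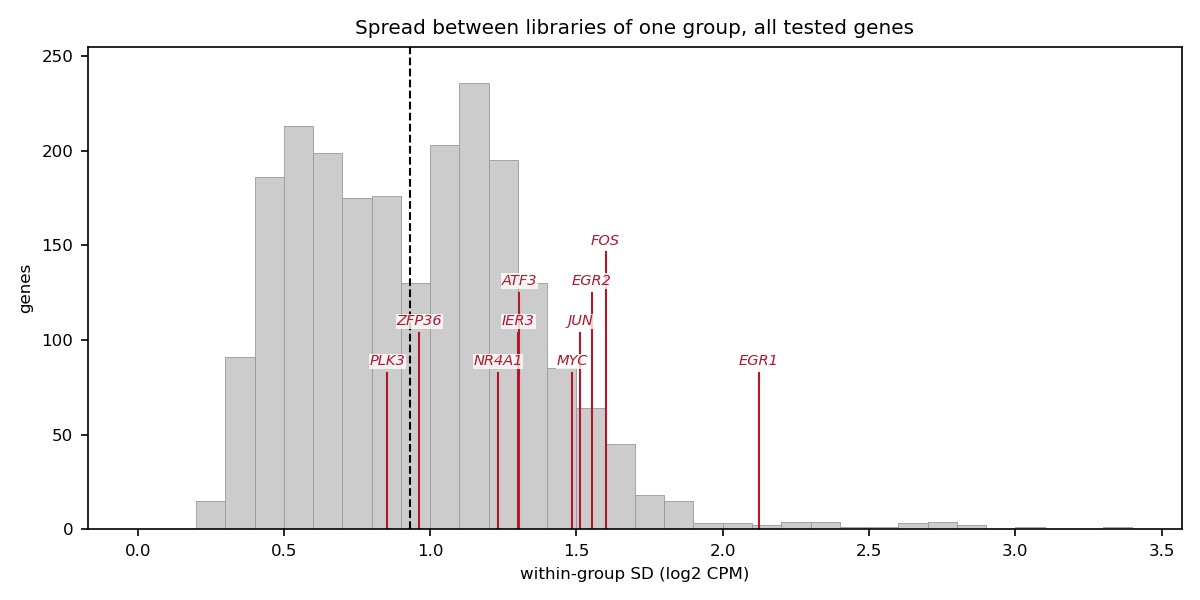
Number of tested genes (vertical axis) by SD of log2 CPM around the group mean (horizontal axis, bins of 0.1). Red lines mark the 10 immediate-early genes and the dashed line the median of all genes, 0.93, which only PLK3 is below.

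The genes also tended to be high in the same mice. Over 68 libraries, the Pearson r of deviations from the group mean had a median of 0.275 over the 45 pairs, against 0.0208 over all 2429910 pairs of genes, and 42 of 45 were above 0. The pairs ran from -0.232 for JUN and NR4A1 to 0.632 for FOS and EGR2, with 0.623 for ATF3 and EGR2, 0.524 for EGR2 and NR4A1, 0.517 for JUN and EGR1 and 0.495 for MYC and PLK3. The median was 0.221 without mouse 90 and 0.224 without mice 89 and 90 (37 of 45 above 0). These values are a description, since the points share library, depth and scaling.

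Other genes of the panel followed the mean of the 10 across the 68 libraries. The 5 most alike were BTG2, an antiproliferative gene (r = 0.669), TRIB1, a pseudokinase (0.608), IGFBP1, an insulin-like growth factor binding protein (0.6005), SOCS1, a cytokine signalling inhibitor (0.597), and FST, the activin-binding follistatin (0.581), against a median of 0.0292 over the 2195 other genes. All 5 were highest of Control-78 in mouse 90, where BTG2 was at 745 CPM (group median 69.2), TRIB1 at 19277 (1188), IGFBP1 at 2956 (1297), SOCS1 at 142 (16.4) and FST at 192 (42.2). Mouse 90 was among the libraries by which the 5 were chosen, so their height in it is partly set by that choice. Without mice 89 and 90 the values were 0.576, 0.326, 0.586, 0.584 and 0.607 in that order, and TRIB1 was then in place 184.

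Genes around the immediate-early response were taken from lists written from general knowledge, and the 9 DCA comparisons gave 10.5% of all tests past the threshold. Of 19 upstream signalling genes, 9 were tested, with 3 higher and 7 lower of 81 tests (12.3%). NRAS, the small GTPase upstream of RAF and ERK, fell in S1-32 (log2 fold change -1.47 ± 0.30, 228 ± 48.4 CPM against 633 ± 268, adjusted p = 0.000508), S2-32 (-1.39 ± 0.30, adjusted p = 0.00335), S3-57 (-1.20 ± 0.32, adjusted p = 0.0133) and S3-78 (-1.08 ± 0.34, adjusted p = 0.0255). The S3-57 call was lost without mouse 49 or 53 (adjusted p from 0.0560 to 0.0702), and the S3-78 call without mouse 55, 56 or 60 of S3-78, 86 of Control-78, 30 of S1-57 or 40 of S2-32 (-1.10 to -0.73, adjusted p from 0.0503 to 0.149). MAPK14, the stress kinase p38 alpha, rose in S2-32 (0.82 ± 0.27, adjusted p = 0.0404) and fell in Direct-78 (-0.92 ± 0.34, adjusted p = 0.0428). The first was lost without mouse 37, 38, 39, 40 or 42 of S2-32 or 75, 76 or 78 of Control-32 (0.67 to 0.84, adjusted p from 0.0551 to 0.117). The second was lost without mouse 64 or 66 of Direct-78, 85, 87, 88, 89 or 90 of Control-78, 30 of S1-57, 39 or 40 of S2-32, 45 of S2-78, 53 of S3-57, 56 of S3-78 or 84 of Control-57 (-0.93 to -0.60, adjusted p from 0.0543 to 0.266).

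Of 19 other immediate-early and AP-1 factors, 7 were tested, with 0 higher and 7 lower of 63 tests (11.1%). FOSL1, a FOS-like AP-1 subunit, fell in S1-10 (-4.75 ± 1.30, 1.38 ± 0.74 CPM against 37.7 ± 39.03, adjusted p = 0.0240), S1-32 (-4.14 ± 1.17, adjusted p = 0.00781) and S2-32 (-4.73 ± 1.24, adjusted p = 0.0108). CEBPB, a bZIP factor of the acute phase, fell in S1-10 (-2.01 ± 0.52, adjusted p = 0.0170) and S1-32 (-1.85 ± 0.48, adjusted p = 0.00423). MAFF, a small MAF factor, fell in S1-10 (-3.19 ± 0.91, adjusted p = 0.0272) and S1-32 (-2.25 ± 0.85, adjusted p = 0.0389). Without mouse 68 of Control-10 all 3 of the S1-10 calls were lost, with FOSL1 at -3.91 (adjusted p = 0.241), CEBPB at -1.33 (adjusted p = 0.376) and MAFF at -0.89 (adjusted p = 0.813). That mouse is the control with few hepatocyte and erythroid marker counts, and their part in these calls was not tested. The S1-10 call of MAFF was also lost without any of mice 14 to 18 of S1-10 (log2 fold change down to -3.16, lowest adjusted p = 0.0518). Its S1-32 call was lost without mouse 20, 21, 22, 23 or 24 of S1-32 or 75 of Control-32 (-2.31 to -1.82, adjusted p from 0.0561 to 0.123). Without mouse 13 of S1-10 MAFF was at -3.83 there, and without mouse 41 of S2-32 FOSL1 was at -6.16.

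Of 15 feedback inhibitors, 6 were tested, with 0 higher and 8 lower of 54 tests (14.8%). TRIB1 fell in S1-32 (-1.20 ± 0.45, adjusted p = 0.0390) and in all 4 groups of week 78, S1-78 (-2.80 ± 0.47, adjusted p = 0.000195), S2-78 (-2.52 ± 0.55, adjusted p = 0.00605), S3-78 (-2.18 ± 0.54, adjusted p = 0.00493) and Direct-78 (-2.51 ± 0.62, adjusted p = 0.00354). Those 4 were lost without mouse 90, at -0.86, -0.58, -0.23 and -0.57 (adjusted p = 0.1196, 0.438, 0.689 and 0.260), and the S1-32 call without mouse 21, 23 or 24 of S1-32 or 75, 77 or 78 of Control-32 (-1.25 to -1.13, adjusted p from 0.0506 to 0.0716). NFKBIA, the inhibitor of NF-kappa-B, fell in S1-32 (-1.28 ± 0.33, 219 ± 69.9 CPM against 532 ± 85.1, adjusted p = 0.00379) and S1-57 (-1.69 ± 0.33, adjusted p = 0.00273), and no single library ended either call.

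Of 28 downstream and delayed early genes, 14 were tested, with 5 higher and 10 lower of 126 tests (11.9%). CCND1, cyclin D1, fell in S1-32 (-1.89 ± 0.56, adjusted p = 0.0105) and rose in S3-78 (2.48 ± 0.60, adjusted p = 0.00429) and Direct-78 (1.76 ± 0.64, adjusted p = 0.0389). The S3-78 call was lost without mouse 59 (0.62, adjusted p = 0.557), and the Direct-78 call without mouse 64 or 66 of Direct-78 or 85, 87, 88, 89 or 90 of Control-78 (1.37 to 1.87, adjusted p from 0.0526 to 0.204), and was 2.39 without mouse 65. MDM2, which targets p53 for degradation, fell in S1-10 (-2.03 ± 0.54, adjusted p = 0.0209), S1-32 (-1.91 ± 0.50, adjusted p = 0.00462) and S2-32 (-1.54 ± 0.50, adjusted p = 0.0362). The S1-10 call was lost without mouse 68 of Control-10 (-1.12, adjusted p = 0.534), the control with few hepatocyte marker counts, and the S2-32 call without mouse 37, 38, 39, 40 or 42 of S2-32 or 75, 76 or 78 of Control-32 (-1.64 to -1.38, adjusted p from 0.0611 to 0.108). VEGFA, the endothelial growth factor, rose in S1-32 (0.76 ± 0.24, adjusted p = 0.0139) and S2-32 (0.84 ± 0.24, adjusted p = 0.0160). Both were lost without mouse 75 or 76 of Control-32, and the second without mouse 40 of S2-32 (0.60 to 0.74, adjusted p from 0.0507 to 0.0557). Stellate and fibroblast marker sums were 339 to 889.9 CPM in S2-32 against 67.4 to 247 in Control-32, without overlap. Their part in the S2-32 calls of NRAS, MAPK14, FOSL1, MDM2 and VEGFA was not tested.

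GADD45A, a stress gene downstream of p53, fell in S1-78 (-2.05 ± 0.47, adjusted p = 0.00655), S2-78 (-1.97 ± 0.55, adjusted p = 0.0436) and S3-78 (-1.80 ± 0.54, adjusted p = 0.0190). Without mouse 90 of Control-78 all 3 were lost, at -0.44 (adjusted p = 0.641), -0.36 (adjusted p = 0.755) and -0.19 (adjusted p = 0.796). The S3-78 call was also lost without mouse 56 (-1.52, adjusted p = 0.0821). The S2-78 call was lost in 22 fits (adjusted p from 0.0507 to 0.755), which left out mouse 43, 44, 45 or 47 of S2-78, 85 or 90 of Control-78, 15 of S1-10, 20, 21 or 23 of S1-32, 30 of S1-57, 39 or 40 of S2-32, 53 of S3-57, 56 of S3-78, 65 of Direct-78, 76, 77 or 78 of Control-32 or 82, 83 or 84 of Control-57.

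Other settings also ended calls of these list genes. With total count as a covariate, the S1-32 calls of NRAS, FOSL1, CEBPB, MAFF, TRIB1, NFKBIA, CCND1, MDM2 and VEGFA were all lost. The covariate also ended those of MAFF in S1-10, MAPK14 in S2-32, GADD45A in S2-78 and S3-78, CCND1 in S3-78, and CCND1, MAPK14 and TRIB1 in Direct-78. The calls of TRIB1 and GADD45A in week 78, and of MAPK14 and CCND1 in Direct-78, were lost when mice 89 and 90 were left out. RLE and upper-quartile scaling each ended the calls of GADD45A in S2-78, NRAS in S3-78 and MAPK14 in Direct-78, and upper-quartile scaling also those of VEGFA in S1-32 and GADD45A in S3-78. DESeq2 ended those of NRAS in S3-78 and MAPK14 in Direct-78, all panel genes those of TRIB1 in S1-32 and MAPK14 in Direct-78, and the edgeR filter that of MAPK14 in Direct-78. With all 78 libraries, calls were lost for MAFF and TRIB1 in S1-32, VEGFA in S1-32 and S2-32, MAPK14 and MDM2 in S2-32, NFKBIA in S1-57, NRAS in S3-57 and GADD45A in S1-78 and S2-78. With only the compared groups they were lost for MAFF in S1-10, MAPK14 and VEGFA in S2-32, NFKBIA in S1-57, NRAS in S3-57 and S3-78, TRIB1 in all 4 groups of week 78, GADD45A in S1-78, S2-78 and S3-78 and CCND1 and MAPK14 in Direct-78.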

How the data were processed

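RNA of 78 mouse livers was measured by TempO-Seq on lysates of fixed, embedded sections, 1 library per mouse, on a panel of 2755 genes. Per the submitters' processing notes, reads were aligned with Bowtie to mm10 and assigned to probed genes by the vendor, and the authors deposited the resulting counts as raw reads per gene. The authors made the signal values in Partek Flow (version 10.0.22.0524) by dividing each count plus 1 by 1 median-ratio factor per library, a relation checked here on every value (largest deviation 0.000543%), and a filtered signal table keeps 2205 genes with higher geometric means. The authors left out 10 libraries of 244409 to 658155 counts, and the 68 kept libraries held 541245 to 4285848 counts (median 2162678). The paper states that samples were excluded when their gene ranking departed too far from the average, by Spearman rank regression. The setting with all 78 libraries returns the excluded ones, taking Direct-78 from 3 to 6 libraries and S3-78 from 4 to 6. Groups were taken from the sample labels.

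Counts of the 68 libraries and 2205 genes were fitted with edgeR 4.0.16 (limma 3.58.1, R 4.3.3) by the quasi-likelihood F-test, with TMM factors and 1 model of 13 group means, with Benjamini-Hochberg adjustment over all 2205 genes of a comparison. A gene passed at an adjusted p at or under 0.05 with a fold beyond 1.5, and a difference between 2 changes at the adjusted p alone. The 17 comparisons were 9 of DCA groups with controls of the same week, 3 of control ages with Control-10, 3 of continued with stopped DCA and 2 differences of changes. CPM values come from the edgeR cpm function, and spread from log2 CPM with a prior count of 2. A count of 0 was given a floor of 3 counts, near the upper 95% limit of the counting error alone. Tables and figures were made with Python 3.11.15, pandas 2.3.3, numpy 2.4.6 and matplotlib 3.10.9. The pipeline was tested on simulated data.

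Other settings were RLE factors, upper-quartile factors, all panel genes with a count, the genes kept by the edgeR filterByExpr function, all 78 libraries, DESeq2 1.42.0, log2 total count as a covariate, only the compared groups, and each library left out in turn. Leaving out mice 89 and 90 together was chosen after seeing the data, and is 1 of the 9 other settings, which do not include single libraries left out. The 10 genes and the gene lists were chosen with earlier results of these data known. Named beside the 10 are list genes that passed in at least 2 of the 9 DCA comparisons, up to 4 per list by smallest adjusted p, and the 5 genes most alike. Promoters from RefSeq were searched on both strands for the CArG box (CC, 6 of A or T, GG), TGACGTCA, TGANTCA and TATAAA.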

Additional observations from a re-analysis of the deposited data

Results flagged for a closer look

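In 9 of 120 groups of 4 to 6 libraries, the highest or lowest library stood apart from the others by more than the 95% limit of Dixon's ratio, the gap to the nearest library over the group's whole range on the log2 scale. Chance alone marks about 1 in 20 groups. Of the 9, 3 were highest and 6 lowest, and none was mouse 90 of Control-78.

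JUN was lowest in mouse 32 of S1-78 (6.04 CPM, the others 46.6 to 86.5; ratio 0.76) and in mouse 47 of S2-78 (0 CPM, the others 56.1 to 128; ratio 0.836). ATF3 was lowest in mouse 73 of Control-32 (0 CPM, the others 7.69 to 20.3; ratio 0.714). EGR2 was highest in mouse 13 of S1-10 (3.62 CPM, the others 0 to 0.633, ratio 0.669) and in mouse 27 of S1-57 (16.02 CPM, the others 0 to 1.34, ratio 0.688). ZFP36 was highest in mouse 41 of S2-32 (172 CPM, the others 12.0 to 29.2, ratio 0.673) and lowest in mouse 84 of Control-57 (7.78 CPM, the others 16.7 to 24.7, ratio 0.652). IER3 was lowest in mouse 18 of S1-10 (0 CPM, the others 3.63 to 5.44, ratio 0.8289). PLK3 was lowest in mouse 50 of S3-57 (165 CPM, the others 247 to 286, ratio 0.729).

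Between S1-10 and Direct-78 the DCA change differed for EGR1 (log2 difference 6.91), PLK3 (2.78) and ZFP36 (-2.38), and between S1-32 and S1-78 for PLK3 (2.73), each by a test of the difference itself. Over all genes 33.8% and 4.44% differed, so the 3 of 10 genes of the first are no larger a share than that of the panel. The 2 PLK3 differences were lost without mouse 90 (1.86, adjusted p = 0.0585, and 1.81, adjusted p = 0.115), that of EGR1 without mice 89 and 90 (3.75, adjusted p = 0.121), and that of ZFP36 turned to 1.07 with total count as a covariate (adjusted p = 0.752).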

How the results depend on the processing

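Of the 10 genes, 12 tests passed among the 9 comparisons of DCA groups with controls, 1 among the 3 control ages, 2 among the 3 comparisons of continued with stopped DCA and 4 among the 2 differences. The first count was 19 with DESeq2, 3 with the covariate and 6 without mice 89 and 90, and 11, 12, 10, 12, 16 and 8 with RLE factors, upper-quartile factors, all panel genes, the filterByExpr genes, all 78 libraries and only the compared groups. All were lower except ZFP36 in Direct-78 with DESeq2 and with all 78 libraries. The count over control ages was 4 with DESeq2, 2 with all 78 libraries and 0 in the other 7 settings. The count for continued against stopped DCA was 0 with the covariate, and that of the differences was 0 with the covariate and 7 with all 78 libraries. Leaving out 1 library gave 7 to 16, 0 to 3, 1 to 4 and 2 to 6 in these 4 counts. The cause was not tested.

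Of the values that passed, those reversed in another setting were FOS in Control-78 against Control-10 without mice 89 and 90 (-0.028), NR4A1 in Direct-78 with all 78 libraries (1.71), ZFP36 in Direct-78 against S1-78 with the covariate (-0.44) and the ZFP36 difference between S1-10 and Direct-78 with the covariate (1.07), and the cause was not tested. Values that did not pass also reversed, such as ATF3 in S1-78 (-1.57, and 0.77 without mice 89 and 90) and ZFP36 in Direct-78 (1.40, and -1.899 with the covariate). The median spread of the 10 genes was 1.74 with a prior count of 0.5, 1.44 with RLE factors, 1.33 without mouse 90 and 1.34 without mice 89 and 90. Genes of the 4 lists passed 10, 7, 8 and 15 times, 3 to 10, 4 to 11, 2 to 10 and 5 to 24 times in the 9 other settings, and 6 to 13, 6 to 10, 3 to 10 and 10 to 18 times with 1 library left out.

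Group sizes of 3 to 6 mice, low counts of EGR2 and NR4A1 and the shallow Direct-78 libraries limit the size of change that can be detected. Total count goes together with group in S1-32, S3-57, S3-78 and Direct-78, so that the covariate fit cannot separate depth from DCA there. No paired analysis was possible because each library came from a different mouse.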
